A study of Mus musculus with 12 samples.

Results

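Gastrocnemius muscle of transgenic (TG) mice, which overexpress E4BP4 in the liver only, was compared with that of wild-type (WT) mice at Zeitgeber time (ZT) 0, the hour at which the lights go on. The comparison rests on 6 of the 12 libraries of the study, 3 from TG and 3 from WT mice, chosen by genotype and time as labelled, and covers every gene of the deposited expression table. All animals were 8 weeks old, of the C57BL/6 background, fed chow without restriction at 22 °C under 12 h of light and 12 h of dark. The other 6 libraries, 3 TG and 3 WT at ZT12 when the lights go off, entered the estimate of the spread and served as a second look at genes picked at ZT0. The promoter of the transgene, the number of founder lines and the sex of the animals are not given in the sources used here. The labels number the libraries 1 to 3 in each group and do not say that each came from a separate animal, so the p-values measure the spread between these libraries.

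E4BP4, encoded by Nfil3, is a basic leucine zipper repressor that binds the same DNA elements (D-boxes) as the activators DBP, TEF and HLF of the clock output. In liver it takes part in the daily rhythm of metabolic genes and in the response to feeding. The transgene is labelled as specific to liver, so the comparison asks how muscle RNA differs when the change is made in another organ. Liver and muscle exchange hormones, nutrients and other blood-borne signals.

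Acta1 (skeletal actin) stood between 21711 and 24313 TPM, transcripts in each 1e6, in the 6 libraries. Recovered reads per ZT0 library, counted in units of 1e6, ranged from 9.21 to 13.1. WT ZT0 replicate 2 stood apart: Cd74, the invariant chain of antigen-presenting molecules, was at 739 TPM there and at 29.8 to 54.2 TPM in the other 5 libraries, and Coro1a, an actin regulator of white blood cells, at 188 against 1.62 to 3.32 TPM. Its median-of-ratios scaling factor was 1.29, against 0.896 to 1.02 for the other ZT0 libraries. Values without it are given below beside many results, and for further lists after the last of them. Of 10 hepatocyte markers, Cyp2e1 and Apoa2 were measured in all 6 libraries, with a summed level of 10.5 to 28.0 TPM, and Alb, Ttr and Apoa1 were listed at 0 in the separate ZT0 table, which gives no counts. At ZT12 the libraries labelled WT replicate 3 and TG replicate 3 went against their labels for the 4 chromosome 19 genes described below. Whether their labels were exchanged was not tested, and the ZT12 values and the spread used at ZT0 depend on it.

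No gene passed the test between TG and WT at ZT0: of 10415 genes tested with limma, 0 (0.0%) had an adjusted p under 0.05, and the smallest adjusted p was 0.998. At an unadjusted p under 0.05 there were 117 genes (1.12%), 12 higher (0.115%) and 105 lower (1.01%) in TG. With limma-voom on the recovered reads the count of calls was again 0, and 125 genes had an unadjusted p under 0.05. At ZT12, 0 genes were called with limma and 99 (0.951%) had an unadjusted p under 0.05; for the difference between the 2 hours these were 0 and 69 (0.663%). At ZT0 the 3 TG values lay above the 3 WT values, without overlap, for 146 genes (1.4%) and below them for 335 genes (3.22%), and at ZT12 this held for 55 (0.528%) and 444 (4.26%). Members of a list without overlap are read against the ZT0 shares, as 0 or 1 member of a short list says little about the list. The excess of lower genes moved with the scaling and with 1 library: 23.5% of genes had a log2 fold change above 0 as deposited, 49.3% after median-of-ratios scaling and 59.8% without WT ZT0 replicate 2. The median log2 fold change over all genes was -0.10, 0.00 and 0.02 in the same order, so the values below are read against -0.10. After median-of-ratios scaling, 73 of the 192 genes at an unadjusted p under 0.05 were higher. Log2 fold changes are given below as the estimate ± its standard error, which had a median of 0.193 over all genes. Genes named below have an adjusted p between 0.998 and 1.00 with limma at ZT0 unless another is given, and are described by their values.

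Nfil3 itself did not differ beyond its spread in muscle. Its level was 16.9, 18.7 and 15.95 TPM in WT and 20.3, 13.6 and 14.2 TPM in TG, so that the TG libraries held both the highest and the lowest value. The log2 fold change was -0.11 ± 0.31. The 95% interval of the fold ran from 0.583 to 1.47.

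The clearest difference was a group of neighbouring genes on chromosome 19. Prdx5, Trmt112 and Esrra lie side by side, and their TG means at ZT0 were 46.7%, 45.8% and 53.8% of the WT means. Rps6ka4, 66.2 kb from Prdx5, had the same pattern at a lower level (38.2%). These 4 genes encode proteins with unlike tasks: a peroxidase of mitochondria and peroxisomes, an activating partner of several methyltransferases, the nuclear receptor ERR-alpha that drives mitochondrial gene expression together with PGC-1, and the stress-activated kinase MSK2.

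Prdx5 (chr19:6906819-6909645 in mm10, minus strand) was at 149, 145 and 136 TPM in the 3 WT libraries and at 71.6, 64.3 and 64.7 TPM in the 3 TG libraries. The lowest WT value was thus well above the highest TG value. The log2 fold change was -1.09 ± 0.28, and the 95% interval of the fold was 0.310 to 0.715. Trmt112 (chr19:6909698-6911026, plus strand) was at 22.8, 24.6 and 20.5 TPM in WT and at 9.46, 10.9 and 10.7 TPM in TG. The estimate for Trmt112 was -1.05 ± 0.28. Esrra (chr19:6910977-6921808, minus strand) was at 62.9, 56.9 and 61.9 TPM in WT and at 37.2, 31.7 and 28.7 TPM in TG. Here too the groups were far from touching, with a log2 fold change of -0.88 ± 0.28. Rps6ka4 (chr19:6829084-6840627, minus strand) was at 5.23, 8.01 and 4.26 TPM in WT and at 2.55, 1.76 and 2.37 TPM in TG, a log2 fold change of -1.05 ± 0.26. It is the least abundant of the 4, counted from 67 to 351 reads per ZT0 library, where Prdx5 had 534 to 1388.

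The gene models are so close that their starts and ends are shown. In the deposited models Prdx5 and Trmt112 start back to back with 52 bases between them, and the far end of Trmt112 overlaps the far end of Esrra by 50 bases on the opposite strand. The library kit does not mark strand, so reads from that overlap cannot be assigned to either gene. The RefSeq start of Prdx5 lies further upstream, inside Trmt112, so reads of those 2 genes may be shared there as well. The stretch between the 2 starts and the 250 bases before the RefSeq starts of Esrra and Rps6ka4, read 5′ to 3′ on the strand given, are printed as the regions next to the genes that differ most (RefSeq, GRCm38.p6).
Prdx5-Trmt112 gap, chr19:6909646-6909697, plus strand: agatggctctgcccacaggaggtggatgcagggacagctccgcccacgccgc
Esrra, chr19:6921809-6922058, minus strand: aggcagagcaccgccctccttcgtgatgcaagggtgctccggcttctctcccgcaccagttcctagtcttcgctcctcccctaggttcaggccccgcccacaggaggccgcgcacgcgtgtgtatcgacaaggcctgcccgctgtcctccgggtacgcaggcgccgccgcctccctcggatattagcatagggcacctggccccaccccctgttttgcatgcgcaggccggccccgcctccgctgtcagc
Rps6ka4, chr19:6840628-6840877, minus strand: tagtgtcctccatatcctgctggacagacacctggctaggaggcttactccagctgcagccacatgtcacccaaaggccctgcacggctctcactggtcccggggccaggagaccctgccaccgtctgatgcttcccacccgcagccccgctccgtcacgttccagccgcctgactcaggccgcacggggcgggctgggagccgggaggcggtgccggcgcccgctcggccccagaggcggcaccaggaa
All 3 stretches are rich in G and C (69.2%, 68.4% and 69.6%). No letter is in capitals because none of the motifs searched on both strands was found in them: the D-box TTANGTAA, the ERR element TNAAGGTCA, its shorter core AGGTCA, which the ERR element contains, the E-box CACGTG, the cyclic AMP element TGACGTCA and the ETS site CCGGAAG. In the RefSeq windows of 300 bases (250 before and 50 after a start), the D-box was held by 2.32% of 32851 windows, the ERR element by 1.28%, the shorter core by 16.3%, the E-box by 7.15%, the cyclic AMP element by 1.79% and the ETS site by 8.86%. The RefSeq windows of Trmt112, Esrra and Rps6ka4 had no match, and that of Prdx5 had 2 matches to the ETS site and none to the others.

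**Figure D1:**
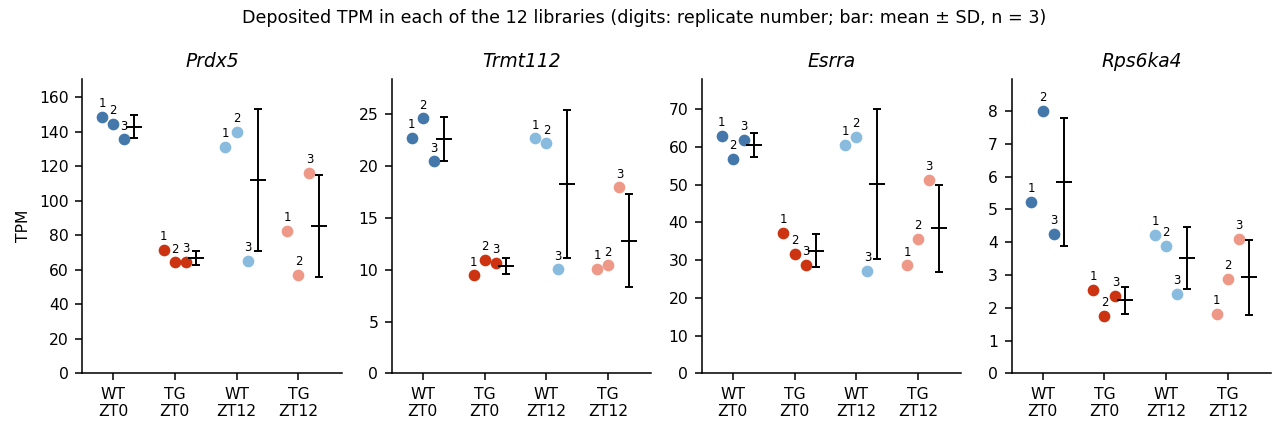
TPM of Prdx5, Trmt112, Esrra and Rps6ka4 (vertical axes, from 0) in each of the 12 libraries by group, with the replicate number above each point and the mean ± SD (n = 3) beside each group. At ZT0 the WT and TG points are apart for all 4 genes, whereas at ZT12 WT replicate 3 lies among the low points and TG replicate 3 among the high ones.

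At ZT12 the 4 genes again moved together from library to library, but not along the genotype labels. Prdx5 was at 131, 140 and 65.1 TPM in WT ZT12 and at 82.7, 57.2 and 117 TPM in TG ZT12. The library labelled WT ZT12 replicate 3 was thus at the level of the TG ZT0 libraries, and the library labelled TG ZT12 replicate 3 stood between the TG and the WT level of ZT0. Esrra was likewise low in WT replicate 3 and highest of the TG libraries in replicate 3, with 60.7, 62.7 and 27.2 TPM in WT ZT12 and 28.6, 35.6 and 51.2 TPM in TG ZT12. Trmt112 was at 22.7, 22.2 and 10.1 TPM in WT ZT12 and at 10.1, 10.4 and 17.96 TPM in TG ZT12, and Rps6ka4 at 4.24, 3.89 and 2.43 TPM and at 1.82, 2.89 and 4.106 TPM. The groups overlapped for all 4 genes at that hour, and their log2 fold changes ran from -0.45 for Trmt112 to -0.22 for Rps6ka4 (limma, adjusted p = 1.00). The difference between the effects at ZT0 and ZT12 did not pass the test for any of them (limma, adjusted p = 1.00).

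Those 2 ZT12 libraries also set the spread against which the ZT0 difference was judged. With the 6 ZT0 libraries alone, limma called Prdx5 (adjusted p = 0.0192) and no other gene. Without WT ZT12 replicate 3 and TG ZT12 replicate 3, limma gave adjusted p = 0.0405 for Prdx5 and 0.0402 for Trmt112 at ZT0; the short model Mir6988, described below, was the only other call. Their log2 fold changes at ZT12 were then -0.97 and -1.06 (limma, adjusted p = 0.57 and 0.44). That choice of libraries was made from the values of these same genes, so these p-values are a description and not a test. Leaving out any single library kept the ZT0 log2 fold change of Prdx5 between -1.14 and -1.06 and that of Esrra between -0.98 and -0.80. In the authors' deposited table of ZT0, Prdx5 had a log2 fold change of -0.51 (p = 0.000163, adjusted p = 1.00) on a scale that is drawn towards 0.

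The genes next to the 4 differed by less. Gpr137, 16.3 kb beyond Esrra, had a log2 fold change of -0.18 at ZT0, and the cell death regulator Bad, its neighbour, had -0.01. Vegfb, a growth factor of the vessel wall, was at 0.08. The median over the 59 other tested genes within 500 kb of any of the chromosome 19 genes with the smallest p was -0.15. That is near the -0.10 of all genes. Of the 59, 48 were lower, 4 of them without overlap (3.22% of all genes), and 1 was higher without overlap (1.4% of all genes). Those 4 were Fau, Tm7sf2, Dnajc4 and the short model Mir6988, and the higher one was Cdc42ep2. Some of the 59 had estimates as low as those of the 4 or near them, with groups that overlapped: Mir5046, a model of 58 bases inside Rps6ka4, had -1.88 ± 0.70, and Sipa1, Frmd8 and Rasgrp2 had -0.85, -0.70 and -0.70. Sipa1 was at 3.37, 27.1 and 2.37 TPM in WT and at 2.81, 3.71 and 2.95 TPM in TG, and without WT ZT0 replicate 2 the latter 3 genes came to 0.11, -0.01 and 0.14, and Mir5046 to -1.39.

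**Figure D2:**
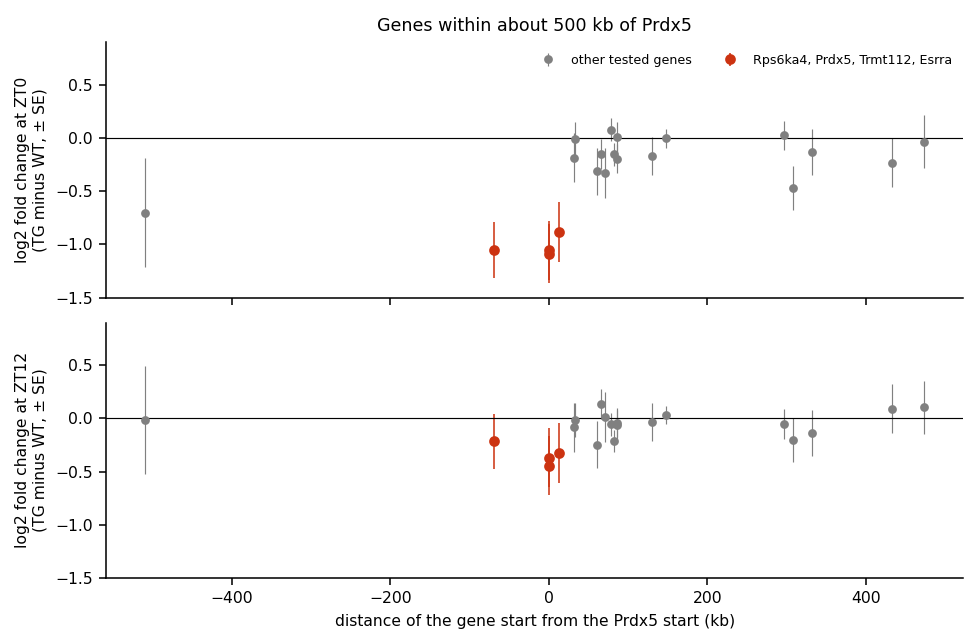
Log2 fold change (TG minus WT, ± standard error) at ZT0 (top) and ZT12 (bottom) of tested genes within about 500 kb of Prdx5 and with transcripts of at least 300 bases, against the distance of each gene's start from the Prdx5 start in kb. The 4 red points lie between -1.09 and -0.88 at ZT0 and between -0.45 and -0.22 at ZT12, while the grey points at ZT0 lie nearer to 0 than the red ones and at ZT12 the ranges of grey and red points meet.

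The families to which these genes belong had medians near the -0.10 of all genes as deposited. Among 31 antioxidant enzymes and related genes, 8 were higher (25.8%, against 23.5% of all genes) and 23 lower. Of these 0 were called, and the median log2 fold change was -0.07. Without WT ZT0 replicate 2, 11 of 31 were higher, against 59.8% of all genes. The median was then -0.03, against 0.02 for all genes. Prdx3, the other mitochondrial peroxiredoxin, was at 106, 100 and 113 TPM in WT and at 119, 108 and 118 TPM in TG, so its groups overlapped and leaned the opposite way from Prdx5. Prdx1, Prdx2, Prdx4 and Prdx6 had log2 fold changes of 0.08, -0.07, -0.22 and -0.07. Txnip, which holds thioredoxin inactive and limits glucose uptake, was at 123, 132 and 107 TPM in WT and at 149, 154 and 132 TPM in TG, the TG values being all above the WT values (0.26 ± 0.15).

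Partners and targets of ERR-alpha differed by less and in both directions. Of 16 regulators in the list of ERR and PGC-1 genes, 5 were higher and 11 lower with a median of -0.12. Esrra was the only one whose groups did not overlap (3.22% of all genes were lower without overlap). Ppargc1a, the PGC-1 coactivator that works with ERR-alpha, was at 3.89, 4.56 and 3.31 TPM in WT and 6.24, 4.24 and 3.54 TPM in TG. Esrrg, a related receptor, had a log2 fold change of 0.09 and Perm1, a muscle cofactor of the same pathway, of 0.09. Lower than the median were Nrip1, a corepressor of nuclear receptors, with -0.57 ± 0.38, and Gabpb1, a subunit of an ETS factor, with -0.31 ± 0.19, both with overlapping groups (-0.32 and -0.10 without WT ZT0 replicate 2). Without that library 8 of the 16 were higher and the median was 0.00. Oxidative phosphorylation subunits, many of which are textbook targets of this pathway, were higher for 38 of 48 members (79.2%, against 23.5% of all genes) with a median of 0.06, and 0 were called. Uqcrc1 of complex III was at 378, 347 and 385 TPM in WT and 445, 391 and 398 TPM in TG, and Sdhb of complex II at 286, 265 and 298 and at 321, 314 and 302 TPM. These were the 2 members of the list without overlap (1.4% of all genes were higher without overlap). Without WT ZT0 replicate 2, 21 of 48 subunits were higher and the median was -0.02, so the lean of the list rested on that library, in which the summed level was lowest (15375 against 16849 to 18216 TPM).

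One list held Trmt112 and methyltransferases, not all of which need TRMT112, and another held kinases related to MSK2. Each had 1 gene lower without overlap, against 3.22% of all genes. That gene was Trmt112 in the first and Rps6ka4 in the second, both already described above. Of 7 tested genes of the TRMT112 list, Mettl5 and Hemk1 had log2 fold changes of 0.04 and 0.01, Alkbh8 and N6amt1 had -0.36 and -0.27, and Trmt112 was the gene without overlap. The median was -0.14, or 0.02 without WT ZT0 replicate 2. Among 14 kinases of the MSK and RSK group, 0 were higher, with a median of -0.11, and Rps6ka5, the closest relative of Rps6ka4, was at -0.08. Rps6ka1 had -0.51, with 13.5 TPM in WT ZT0 replicate 2 and 2.69 to 3.48 TPM in the other 5 libraries, and 0.13 without that library. Without WT ZT0 replicate 2, 7 of the 14 were higher.

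Apart from the chromosome 19 neighbours, the genes with the smallest p were weakly expressed. The 10 genes of smallest p with transcripts of at least 300 bases were all lower in TG and without overlap, as the choice by p makes likely, and 7 of them had WT means under 7 TPM beside Rps6ka4. Rpl9, a protein of the large ribosomal subunit, was at 3.25, 3.77 and 3.06 TPM in WT and 1.46, 2.18 and 1.14 TPM in TG (12 to 38 reads), with a log2 fold change of -0.77 ± 0.19. Fau, which encodes a ubiquitin-like protein fused to a small-subunit ribosomal protein, was at 6.19, 8.30 and 5.50 TPM and at 4.41, 3.92 and 3.87 TPM. Both have processed copies elsewhere in the genome with which reads can be shared, so their levels are uncertain. Nnmt, which methylates nicotinamide and so drains the NAD precursor pool, was at 2.84, 4.72 and 4.33 TPM in WT and at 1.75, 2.44 and 1.56 TPM in TG (-0.76 ± 0.22). Zdhhc12, a palmitoyltransferase, Cks1b, a cell cycle kinase subunit, and Acbd7, an acyl-CoA-binding protein, had log2 fold changes of -0.69, -0.82 and -0.74. Atp6v1g2, a proton pump subunit, was at 2.47, 1.87 and 1.95 TPM in WT ZT0 and at 1.24, 1.32 and 1.01 TPM in TG ZT0. At ZT12 it leaned the other way (log2 fold change 0.29), and its difference between the hours did not pass the test (limma, adjusted p = 1.00). Of the 10 genes, 9 were lower at ZT12 as well, with none called, and 1 of the 10, Atp6v1g2, had groups without overlap there.

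Gene models shorter than 300 bases among the smallest p rested on single reads. Mir6988, first of all genes by p (limma, adjusted p = 0.998), had 1 read in each WT and 0 in each TG library. Mir6911 had 2, 1 and 2 reads in WT and 0, 0 and 1 in TG, Snord47 had 2, 4 and 3 against 0, 1 and 0, and Mir7092 had 4, 3 and 3 against 0, 1 and 0. Libraries of poly(A) RNA are not made to measure such RNAs, and these counts sit at the limit that a count of 0 allows.

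Genes that were higher in TG differed by less. Clybl, a mitochondrial enzyme that breaks down citramalyl-CoA and is linked to vitamin B12 metabolism, was at 25.2, 26.1 and 28.1 TPM in WT and at 38.8, 33.3 and 36.4 TPM in TG. The lowest TG library was above the highest WT library, with a log2 fold change of 0.44 ± 0.15. Thap4 was at 17.7, 16.6 and 21.7 TPM in WT and at 29.6, 21.9 and 28.4 TPM in TG (log2 fold change 0.49). Both kept their sign without WT ZT0 replicate 2 (0.43 and 0.41). At ZT12 both followed the libraries in the inverse sense to Prdx5: Clybl was at 26.7, 30.4 and 33.8 TPM in WT and at 34.2, 36.6 and 23.8 TPM in TG, and Thap4 at 19.8, 22.3 and 30.1 and at 28.6, 25.6 and 18.8 TPM. WT ZT12 replicate 3 was the highest WT library of that hour for both, and TG ZT12 replicate 3 the lowest TG library, so that the groups overlapped.

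Ldhb, the lactate dehydrogenase subunit of oxidative fibres, was at 27.7, 32.4 and 28.5 TPM in WT and 38.8, 44.1 and 47.4 TPM in TG at ZT0 (0.54 ± 0.25). Meg3, a long noncoding RNA of an imprinted cluster, had a log2 fold change of 0.56 and Igip, a small secreted protein gene, of 0.41. Their TG values were above all WT values at ZT0 and overlapped at ZT12, where the log2 fold changes were -0.09, -0.22 and 0.03 for Ldhb, Meg3 and Igip. Chrne, the adult subunit of the acetylcholine receptor at the nerve-muscle contact, was at 6.92, 6.53 and 6.79 TPM in WT and at 8.998, 8.31 and 8.43 TPM in TG (0.31 ± 0.14). Its estimate at ZT12 was of like size, 0.29, with 5.43, 6.99 and 4.90 TPM in WT and 6.34, 7.87 and 7.44 TPM in TG, and the groups overlapped there.

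**Figure D3:**
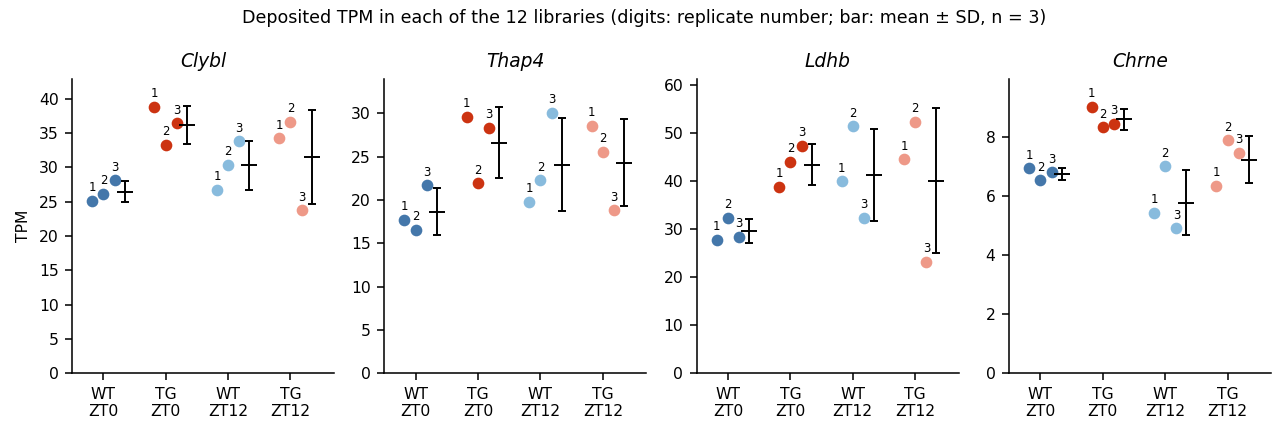
TPM of Clybl, Thap4, Ldhb and Chrne (vertical axes, from 0) in each of the 12 libraries by group, with replicate numbers and mean ± SD (n = 3). The TG points are above the WT points at ZT0 in all 4 panels and mixed with them at ZT12.

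Transcripts of lymphocytes and antigen-presenting cells gave the lowest median of any list, and this came from 1 library. All 5 tested members of 22 listed had TG means below the WT means, at a median of -1.41 (log2), yet the groups overlapped for every one. Their summed level was 1730 TPM in WT ZT0 replicate 2, 97.5 and 82.5 TPM in the other WT libraries and 63.8 to 121 TPM in TG. Without that library the median was -0.09. Cd79a of the B cell receptor, which is outside the expression table, had its highest deposited log2 value there too (3.19 against 2.84 to 2.85 in the other 5). In bulk tissue, fewer cells of a type and less RNA per cell cannot be told apart.

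Interferon-response genes were lower for 23 of 23 members with a median of -0.67, and 3 had no overlap (3.22% of all genes were lower without overlap). Their summed level was 1075 TPM in WT ZT0 replicate 2 and 231 to 264 TPM in the other 5 libraries, and without it 9 of 23 were higher and the median was -0.02. Ifi35, an interferon-induced protein, was at 9.61, 16.2 and 8.66 TPM in WT and at 7.12, 6.25 and 7.07 TPM in TG, and kept a log2 fold change of -0.38 without that library. The lymphoid list moved with these genes, and its part in the result was not tested beyond leaving the library out. The same library set most of the lowest differences among genes of at least 5 TPM without overlap, though not that of Prdx5. Gimap4, a lymphocyte GTPase, was at 2.80, 37.5 and 2.52 TPM in WT and 2.24, 2.19 and 2.21 TPM in TG. Ucp2, a mitochondrial carrier, and H2-Q4, a class I antigen-presenting gene, had the same shape, with log2 fold changes of -1.24 and -1.10 that came to -0.16 and -0.14 without replicate 2.

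Immediate early genes, which are switched on within minutes of a stimulus, were lower for 17 of 21 members with a median of -0.41. Junb was at 3.65, 18.4 and 3.18 TPM in WT and at 1.96, 2.36 and 2.52 TPM in TG. It was the only member without overlap (3.22% of all genes were lower without overlap). Its log2 fold change was -1.14, or -0.43 without WT ZT0 replicate 2. Dusp1, a phosphatase that ends MAP kinase signals, was at 25.1, 40.1 and 32.1 TPM in WT and at 27.0, 17.8 and 22.5 TPM in TG. Without replicate 2 the list had 9 of 21 higher and a median of -0.01.

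Cytosolic ribosomal protein genes were lower for 68 of 74 members, with a median of -0.29. Of the 74, 12 were lower without overlap, against 3.22% of all genes. Rpl8, a protein of the large subunit, was at 329, 602 and 323 TPM in WT and at 296, 309 and 309 TPM in TG. Without WT ZT0 replicate 2 the median was -0.06, with 19 of 74 higher against 59.8% of all genes. Mitochondrial ribosomal protein genes had 46 of 77 higher and a median of 0.02 (0.01 without that library). Without overlap were 5 higher and 3 lower members, against 1.4% and 3.22% of all genes. Mrps35 was at 12.6, 11.8 and 10.5 TPM in WT and at 14.03, 14.5 and 13.55 TPM in TG, and Mrpl34 at 58.4, 48.4 and 50.3 and at 42.3, 46.3 and 43.9 TPM.

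**Figure D4:**
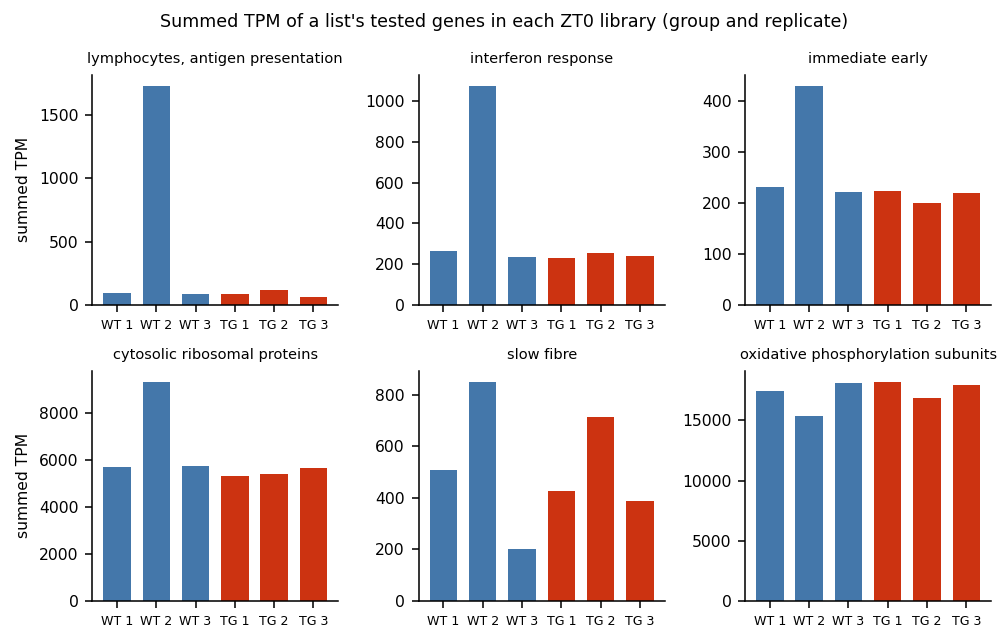
Summed TPM of the tested members of 6 lists (vertical axes, from 0) in each ZT0 library, WT in blue and TG in red. WT replicate 2 is the highest bar for the lymphoid, interferon, immediate early, cytosolic ribosomal and slow fibre lists and the lowest for oxidative phosphorylation.

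Clock genes were close to the WT level. Of 20 tested, 8 were higher and 12 lower with a median of -0.07. Without overlap were 3, all lower, against 3.22% of all genes. Nr1d1 (REV-ERB-alpha), a repressor within the clock, was at 12.6, 13.96 and 12.2 TPM in WT and at 10.4, 10.3 and 11.6 TPM in TG, with a log2 fold change of -0.24 ± 0.16. Its estimate at ZT12 was -0.23. Nr1d2 and Csnk1e, a kinase that marks PER proteins for decay, each had -0.15. The D-box activators, which share sites with E4BP4, were close to the WT level: Dbp was at 51.5, 48.1 and 51.5 TPM in WT and at 45.9, 51.2 and 54.2 TPM in TG, a log2 fold change of 0.00 ± 0.22, while Tef and Hlf had -0.06 and -0.09. Arntl (BMAL1), the activator at the core of the clock, had 0.00.

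Signals that could link liver and muscle showed small differences. In growth hormone and IGF1 signalling, 5 of 15 members were higher with a median of -0.04, and Igf1 was at 5.95, 6.19 and 4.69 TPM in WT and at 7.54, 5.22 and 5.34 TPM in TG. Igfbp6, which binds IGF2, was at 46.1, 42.5 and 46.7 TPM in WT and at 49.3, 60.2 and 48.6 TPM in TG. It was the only member without overlap (1.4% of all genes were higher without overlap). At ZT12 it leaned the other way, without overlap (-0.52; difference between the hours by limma, adjusted p = 1.00). The growth hormone target Cish, outside the expression table, had deposited log2 values of 3.23, 3.27 and 3.43 in WT and 3.25, 3.31 and 3.29 in TG. Insulin signalling had 2 of 20 higher with a median of -0.11, but 9 of 20 after median-of-ratios scaling and 13 of 20, with a median of 0.02, without WT ZT0 replicate 2. Grb14, an inhibitor of the insulin receptor, was its only member without overlap, against the same 1.4% of all genes. It was at 4.73, 5.50 and 4.96 TPM in WT and 5.72, 6.18 and 5.81 TPM in TG.

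Glucocorticoid-response genes were higher for 11 of 17 members with a median of 0.04. Arrdc3, an arrestin that controls receptor turnover, was at 19.8, 20.6 and 16.8 TPM in WT and at 23.2, 22.6 and 22.6 TPM in TG (0.25 ± 0.13), while Fkbp5, a classical target of the hormone, had -0.17. Among genes of atrophy, 5 of 17 were higher with a median of -0.08. Without overlap were 0, against 1.4% of all genes higher and 3.22% lower. The ubiquitin ligases Trim63 and Fbxo32 had 0.08 and -0.11. The integrated stress response had 2 of 14 higher with a median of -0.14, heat shock genes 5 of 23 with -0.09, autophagy and lysosome genes 4 of 23 with -0.05, and proteasome subunits 5 of 37 with -0.06.

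Among genes of fuel use, those of fatty acid oxidation leaned most to higher values on the scale as deposited. No list of this group had a call. Fatty acid oxidation and PPAR targets were higher for 22 of 28 members (against 23.5% of all genes) with a median of 0.06. Without WT ZT0 replicate 2 this was 24 of 28 (against 59.8%), again with a median of 0.06. Hadhb, a subunit of the trifunctional protein of beta-oxidation, was at 13.6, 13.6 and 15.7 TPM in WT and at 16.9, 15.1 and 18.2 TPM in TG, where 1 WT library lay among the TG values. Cpt1b, which admits fatty acids to mitochondria, had 0.06. At ZT12 only 3 of the 28 were higher, with a median of -0.09 against -0.07 over all genes. Glycolysis, glycogen and glucose uptake had 16 of 26 higher and a median of 0.00. Ldhb and Aldoa were higher and Tbc1d4, a brake on glucose transporter traffic, lower without overlap (1.4% and 3.22% of all genes). NAD and sirtuin genes had 5 of 18 higher with a median of -0.03, and lipid synthesis genes 4 of 21 with -0.15, or 12 of 21 with 0.02 without WT ZT0 replicate 2.

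Fibre type could not be read from these libraries. Slow fibre genes were higher for 9 of 11 members with a median of 0.09, but the median was 0.61 without WT ZT0 replicate 2 and -0.61 without WT ZT0 replicate 3. Myl2, the slow myosin regulatory light chain, was at 106, 165 and 31.6 TPM in WT and at 99.4, 136 and 76.5 TPM in TG, so that both extremes were WT libraries. Fast fibre genes were higher for 11 of 15 with a median of 0.04, and Casq1, the calcium store protein of fast fibres, was at 1865, 1762 and 1816 TPM in WT and at 1902, 1889.7 and 1917 TPM in TG. Myogenic factors had 1 of 15 higher with a median of -0.06; that member was Myod1, at 22.9, 26.1 and 18.4 TPM in WT and at 27.1, 28.1 and 27.6 TPM in TG. Neuromuscular junction genes had 6 of 13 higher with a median of -0.02, with Chrne the only one without overlap (1.4% of all genes were higher without overlap).

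Among the other cells of the muscle, fibro-adipogenic cells had the highest median of any list, 0.16, with 6 of 8 markers higher. At ZT12, 0 of the 8 were higher, with a median of -0.26 against -0.07 for all genes. The summed level of the 8 markers at ZT0 was 872, 838 and 765 TPM in WT and 860, 1074 and 835 TPM in TG. It lay above the WT values in TG replicate 2 only. Smoc2, a matrix protein of these cells, was at 41.1, 36.0 and 39.8 TPM in WT and at 44.5, 48.5 and 48.3 TPM in TG (0.27 ± 0.10), and the proteoglycan Dcn at 216, 186 and 190 and at 222, 251 and 224 TPM. Both were above the WT level without overlap at ZT0 and below it without overlap at ZT12, where the log2 fold changes were -0.19 and -0.26. The difference between the hours did not pass the test for either (limma, adjusted p = 1.00). Extracellular matrix genes had 10 of 25 higher with a median of -0.01. Macrophage markers were lower for 7 of 8 with a median of -0.39, or -0.20 without WT ZT0 replicate 2; Lyz2 was at 94.1, 203 and 40.2 TPM in WT and at 41.3, 61.8 and 28.0 TPM in TG. Adipocyte markers followed single libraries, Adipoq being at 11.7, 33.4 and 10.6 TPM in WT and at 4.71, 24.6 and 6.17 TPM in TG. Their median was -0.47, or 0.04 without WT ZT0 replicate 2. Endothelial markers had 1 of 8 higher with a median of -0.18 (0.04 without that library), smooth muscle 2 of 6 with -0.08, tendon 1 of 5 with -0.05, Schwann cells 6 of 7 with 0.05 and red cells 6 of 7 with 0.07, or 0 of 7 with -0.16 without that library. Of the hepatocyte list 2 genes of 10 were tested, Cyp2e1 and Apoa2, both lower, and none of the 7 neutrophil markers was. The general fibre markers had 5 of 10 higher with a median of -0.01.

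**Figure D5:**
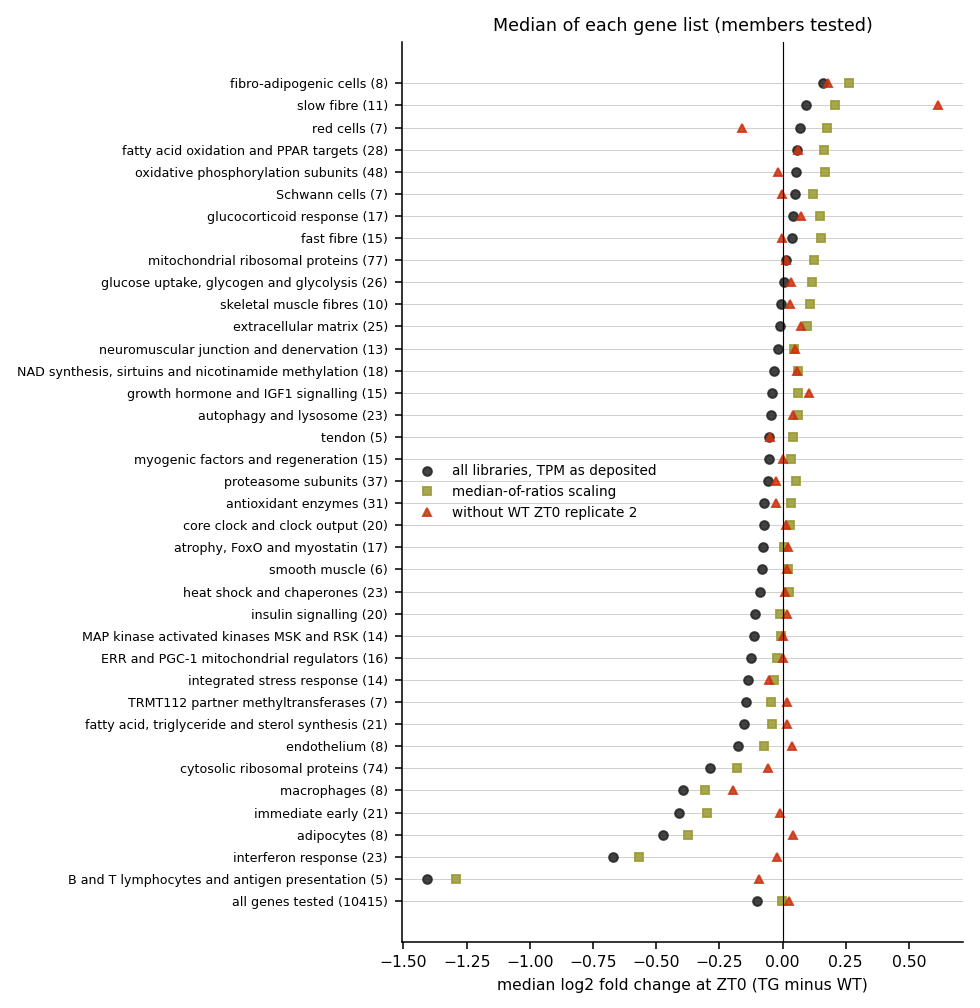
Median log2 fold change at ZT0 (TG minus WT) of each list with at least 5 tested members, as deposited (circles), after median-of-ratios scaling (squares) and without WT ZT0 replicate 2 (triangles), with all genes at the bottom. The circles of the lymphoid, interferon, adipocyte and immediate early lists lie below -0.40, and their triangles lie between -0.09 and 0.04.

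Every list with a median between -0.10 and 0 as deposited had a median above 0 after median-of-ratios scaling, so the direction of these lists is not fixed by the data. Many counts given above only with WT ZT0 replicate 2 also changed without it, where 59.8% of all genes were higher. Growth hormone and IGF1 genes went to 12 of 15 higher, atrophy genes to 11 of 17 and heat shock genes to 14 of 23. Autophagy and lysosome genes went to 18 of 23, myogenic factors to 8 of 15 and clock genes to 12 of 20. Fast fibre genes went to 7 of 15 and Schwann cell markers to 3 of 7. Proteasome subunits came to 13 of 37 and integrated stress response genes to 6 of 14, below the share of all genes. Tendon markers stayed at 1 of 5 and macrophage markers at 1 of 8. Extracellular matrix genes came to 21 of 25 and glucocorticoid-response genes to 15 of 17.

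Genes outside the expression table added no difference. Of 3074 such genes with signal in the ZT0 table, limma called 0 on the deposited log2 values. Over all 13549 genes of that table with signal the count was 0 as well (0.0%), while 198 genes (1.46%) had an unadjusted p under 0.05. The smallest p among the 3074 (limma, adjusted p = 0.807) was shared by Snord45c, Arg2, Flywch2 and Tigd5, which had the same deposited values, and Mir6944, next by p, shared its values with further genes. The groups did not overlap for 29 of the 3074 genes that were higher (0.943%) and 55 that were lower (1.79%). The genes that shared the smallest p differed by 0.0071, and Mir6944 by -0.0068, on the deposited log2 scale, which is drawn towards each gene's mean. Both differences are very small. WT ZT0 replicate 2 held the highest value of 48.4% of the 3074 genes.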

How the data were processed

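Poly(A) RNA of gastrocnemius muscle was sequenced from 100 ng of total RNA with an unstranded kit, per the labels' protocols. Tools named in the submitters' processing notes are STAR, HOMER 4.11.1, DESeq2 and bcl2fastq, and the build is mm10. The TPM table was deposited by the authors for 10475 genes. Per the file headers, the authors' table for each hour was made with HOMER (exon reads per gene); its library columns carry the heading FPKM, yet they hold log2 values that were shrunk to the gene's mean. The same table gives a deposited fold change (log2) with its p-value. How genes were chosen for the TPM table is not given in the sources used here.

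The 10415 genes that reached 1 TPM in 3 or more libraries were tested with limma 3.58.1 (trend, R 4.3.3) on log2(TPM + 1), so fold changes of low genes are understated. A mean per group was fitted in all 12 libraries, and p-values were adjusted by Benjamini-Hochberg over all genes. The plan allowed for counts, and the TPM unit led to this test. No depth is stated; TPM times transcript length gave whole reads (within 0.1 read, 100% of values under 500 reads, among 10105 genes of 1 length), which limma-voom used. The fit was run on simulated counts with a common spread and no library that stood apart. It therefore does not show how the fit handles libraries such as WT ZT0 replicate 2.

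Named were Nfil3, the 10 genes of smallest p with transcripts of at least 300 bases (shorter ones apart), the 5 highest and 5 lowest non-overlapping genes of at least 5 TPM, up to 4 members of smallest p in each of 39 lists, tested genes within 500 kb where 2 of the 10 lie within 1 Mb, and 5 outside the table. Other genes were named after their values were seen, among them further list members with no overlap or of known role (such as Prdx3, Ppargc1a, Dbp, Igf1, Grb14, Casq1, Myl2). Members and lists were chosen with earlier results of these data known. Lists are described by counts and medians, without a test. Python 3.11.15 with pandas 2.3.3, numpy 2.4.6 and matplotlib 3.10.9 served for tables and plots. Alternatives were other scalings, filters, pseudocounts, weights, fits, a replicate block and each library left out.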

Additional observations from a re-analysis of the deposited data

How the results depend on the processing

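The count of 0 genes at ZT0 held under other scalings, filters, pseudocounts, the replicate block, limma-voom and the deposited log2 table. It was 1 with the 6 ZT0 libraries alone (Prdx5), 0 to 1 when single libraries were left out (1, Mir6988, without TG ZT12 replicate 3), 612 with estimated library weights, 2 with weights estimated gene by gene (Mir6988 and Mir6911), and 3 without WT ZT12 replicate 3 and TG ZT12 replicate 3. The weights behind 612 did not converge and ran from 0.0670 (WT ZT0 replicate 2) to 54.8 (TG ZT12 replicate 3). Under the 2 kinds of weights the calls at ZT12 were 2369 and 192, and those of the difference between hours 1386 and 9; ZT12 had 2 when TG ZT12 replicate 1 and WT ZT0 replicate 2 were both left out, and the cause was not tested. Genes outside the table had 0 to 45 calls when single libraries were left out, 45 without WT ZT0 replicate 2, each with a difference of 0.0070 to 0.0072. Lists with a median above that of all genes numbered 24 of 38, with a range of 13 to 24 over single libraries left out, 13 without WT ZT0 replicate 2 (also with median-of-ratios scaling, and without TG ZT12 replicate 1), and 12 with limma-voom, median-of-ratios scaling and that library left out. Nfil3 turned to 0.0032 with upper-quartile scaling. Of 195 other named genes, 16 changed sign with median-of-ratios scaling and 57 without WT ZT0 replicate 2. With the replicate block 0 genes were called, and 198 against 117 had an unadjusted p under 0.05. The numbers were not taken to pair the libraries: deviations of same-numbered libraries correlated at 0.02 to 0.24 over the 3 ZT0 pairs (median 0.16, against -0.11 for unlike numbers) and at -0.35 to 0.29 over 18 pairs in all, and for 5 of 12 libraries the closest one bore their number. Weights, the fits without pairs of libraries and limma-voom with median-of-ratios scaling were chosen after seeing the data. With 3 libraries a group, differences near the median standard error of 0.193 are not detectable. Much larger ones also went uncalled: Prdx5 at -1.09 ± 0.28 had adjusted p = 0.998 (limma, all 12 libraries).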

Other observations

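Few genes separated the genotypes at both hours. The TG and WT libraries did not overlap in the same direction at ZT0 and at ZT12 for 16 genes that were lower (0.154% of those tested) and for 2 that were higher (0.0192%), while 10 were higher at ZT0 and lower at ZT12 and 3 the reverse. At ZT0 and ZT12 taken singly, 3.22% and 4.26% of genes were lower without overlap, and 1.4% and 0.528% higher. Whether the counts at both hours exceed what these shares would give was not tested. The higher 2 were Fn3k, which removes sugars from glycated proteins, and Mrpl27, a mitochondrial ribosomal protein. Fn3k was at 11.4, 9.81 and 12.4 TPM in WT ZT0 and 13.1, 13.8 and 13.7 TPM in TG ZT0, and at 13.5, 13.5 and 13.6 TPM in WT ZT12 and 16.7, 14.2 and 14.01 TPM in TG ZT12. Among the lower genes Ntan1, an amidase of the N-degron pathway, was at 21.5, 23.7 and 19.5 TPM in WT ZT0 and 19.2, 18.5 and 18.9 TPM in TG ZT0, and at 23.8, 22.7 and 21.9 TPM in WT ZT12 and 18.8, 20.7 and 17.0 TPM in TG ZT12. Tubg1, the gamma-tubulin of the centrosome, was at 18.001, 21.1 and 17.2 TPM in WT ZT0 and 16.2, 15.2 and 13.1 TPM in TG ZT0, and at 15.9, 15.6 and 14.9 TPM in WT ZT12 and 12.6, 14.5 and 14.4 TPM in TG ZT12. After median-of-ratios scaling the ZT0 log2 fold change of Ntan1 went from -0.18 to -0.07 and that of Tubg1 from -0.32 to -0.21. Those of Fn3k and Mrpl27 went from 0.26 to 0.36 and from 0.10 to 0.21. These genes were picked after their values were seen, and limma called none of them at either hour.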
